A study of Mus musculus with 9 samples.

Results

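The 42 genes described here encode the proteins of synaptic vesicles and of the machinery that releases them. They were taken by symbol from a list. It spans vesicle membrane proteins, synaptotagmins and Doc2 proteins, SNARE proteins and their partners, Rab3 proteins, active zone scaffolds and endocytic proteins. All 42 were found among the 54532 genes of the table, and all 42 passed the filter on low values in every comparison. RNA was sequenced from the cortex of 9 male mice aged 8 to 12 weeks, with 3 mice each of B6 (C57BL6/J), C3H (C3H/HeJ) and WSB (WSB/EiJ). B6 and C3H are classical inbred strains, whereas WSB descends from wild-caught mice. The labels name no engineered allele and no agent, so strain is the factor that separates the groups. The study compared these strains because they differ in the volume of brain lost after a blocked artery, and the RNA describes cortex without such an injury.

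At a synapse, vesicles filled with transmitter are tethered at the active zone by scaffold proteins such as bassoon, piccolo and the RIM proteins, and are primed for release by Munc13 proteins. The SNARE proteins VAMP2, syntaxin 1 and SNAP-25 zip together to drive fusion, complexins clamp and assist them, and synaptotagmin 1 triggers fusion when calcium enters. NSF and its SNAP adaptor proteins then pull the SNARE complex apart, and dynamin, synaptojanin and amphiphysin retrieve the membrane for another cycle.

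Levels are given as FPKM, the fragments on a gene per kilobase of its length scaled for library size, so they can be set side by side between genes. Reads on genes ran from 16317439 to 21562429 per library, and the members took between 87 reads (Syn3) and 44810 reads (Snap25) in a mouse. Neuronal markers were present in every mouse: 5 markers of cortical excitatory neurons summed to between 1623 and 2201 FPKM, and 6 markers of neurons in general summed to between 661 and 771 FPKM, with 0 of either list differing between strains by the test used below. Among the 6, Eno2 ran lower in B6 (209 to 222 FPKM) than in C3H (255 to 301) and WSB (248 to 280), without passing. The summed markers of several other cell types differed between strains, though not every gene of a list followed its sum. The summed level of 7 oligodendrocyte markers was 465 to 667 FPKM in WSB against 851 to 1070 in B6 and 801 to 1076 in C3H, and that of 5 blood genes was 632 to 1010 FPKM in C3H against 217 to 254 in B6 and 249 to 329 in WSB. Of the blood genes, Hbb-bt had 5.27, 2.20 and 69.3 FPKM in C3H and 23.4, 23.5 and 27.8 in B6. The summed level of 5 microglial markers was 96.5 to 97.8 FPKM in WSB, 113 to 119 in B6 and 117 to 141 in C3H. Of these 5, only Csf1r passed in WSB against B6, and P2ry12 averaged 11.5 FPKM in WSB and 10.1 in B6. The summed level of 7 inhibitory interneuron markers was 628 to 764 FPKM in WSB, 587 to 609 in B6 and 583 to 674 in C3H. All 7 had log2 fold changes above 0 in WSB against B6, although 0 of them passed by limma. Markers of striatal neurons (81.1 to 456 FPKM) varied widely between mice of the same strain. Those of choroid plexus did so in B6 (64.1 to 764 FPKM) and C3H (91.8 to 655), and less in WSB (468 to 603). None of these shifts was tested for its part in the results, and in bulk tissue fewer cells of a type and less RNA per cell cannot be told apart. C3H replicate 2 stood apart from the other C3H mice and was the C3H mouse closest to the B6 mean for 28 of the 42 genes, so values without it are given for the genes whose call it decides.

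The release genes were among the abundant transcripts of cortex and kept nearly the same order in the 3 strains. Of the 42 genes, 15 averaged 100 FPKM or more over the 9 mice, 18 lay between 10 and 100, 8 lay between 1 and 10, and only Syn3 lay under 1, at 0.512 FPKM. Exons of Timp3 (mean 6.38 FPKM) on the opposite strand cover 14.1% of the exonic bases of Syn3, and whether counting used strand is not given in the sources used here. The 3 most abundant were the SNARE regulators and SNARE gene Cplx2, Vamp2 and Cplx1, with means of 355, 355 and 353 FPKM. They were followed by Dnm1, the neuronal dynamin, at 316 FPKM and by Snap25 at 307 FPKM. The highest mean was 694 times the lowest. Strain means ranked the 42 genes alike, with a Spearman correlation of 0.994 between WSB and B6, 0.988 between C3H and B6 and 0.989 between WSB and C3H, and 38 genes moved by at most 3 ranks. The coefficient of variation among mice of a strain had a median of 9.58% over the genes, from 5.03% for Nsf to 27.5% for Unc13c.

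**Figure D1:**
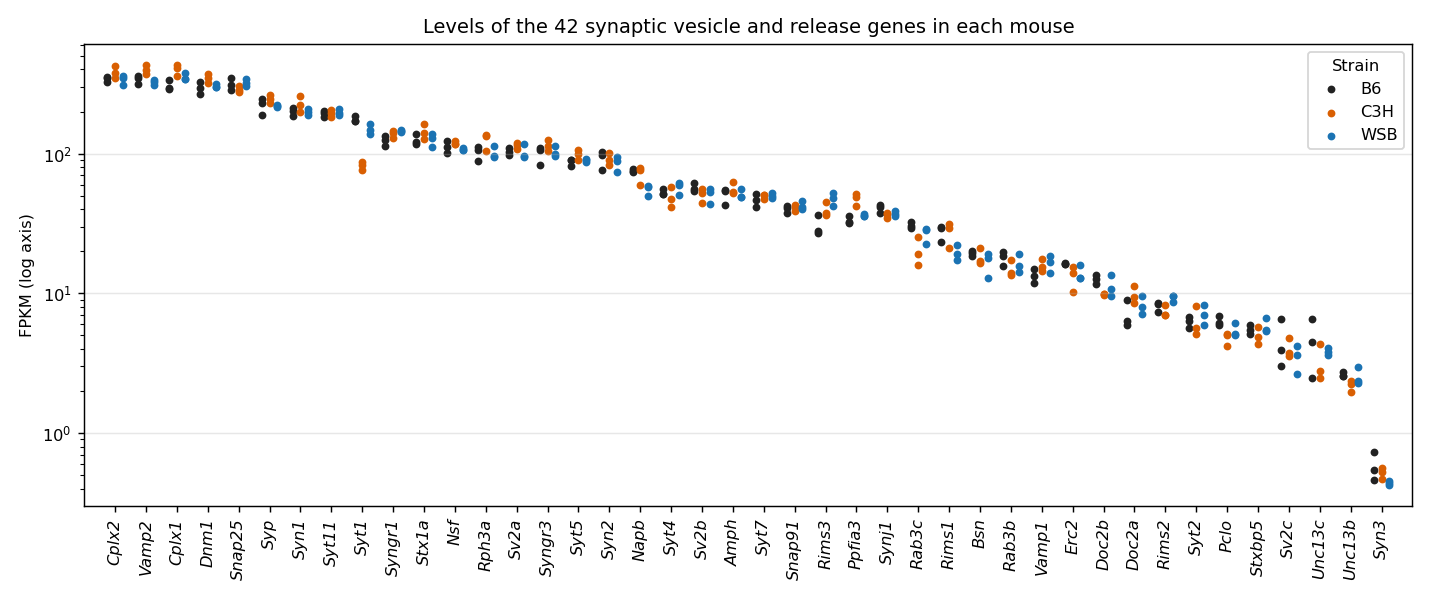
FPKM of each of the 42 genes in each of the 9 mice (points, coloured by strain) on a log axis, with genes ordered by their mean. For most genes the 3 strains sit on top of one another, while the C3H points of Syt1 (76.8 to 86.5 FPKM) lie apart from those of B6 and WSB (138 to 187 FPKM).

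Differences between strains were few. Each pair of strains was compared by limma on log2(FPKM + 0.1), and a gene passed when its p-value, adjusted over all genes tested by the Benjamini-Hochberg method, was under 0.05. In WSB against B6, 2 of the 42 genes passed (4.76%), where 5.9% of all genes tested did. In C3H against B6, 2 passed, where the share over all genes was 4.64%. In WSB against C3H, 2 passed as well, where the share over all genes was 5.74%. Each comparison had 1 gene higher and 1 lower. Over all genes, 2.81% were higher and 3.09% lower in WSB against B6, 2.38% and 2.26% in C3H against B6, and 2.61% and 3.13% in WSB against C3H. Of the 42 genes, 38 passed in none. The share of release genes that differed was thus near the share of all genes.

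The sizes of the differences were mostly small. Without regard to sign, the median log2 fold change of the 42 genes was 0.119, 0.163 and 0.178 in WSB against B6, C3H against B6 and WSB against C3H, beside 0.206, 0.251 and 0.252 over all genes and 0.144, 0.200 and 0.186 over genes that averaged 1 FPKM or more. With sign, the median log2 fold change of the 42 genes was -0.01 in WSB against B6, 0.00196 in C3H against B6 and -0.05 in WSB against C3H, beside medians over all genes of 0.00248, -0.00384 and 0.00893. Fold changes under 0.5 in size on the log2 scale were seen for 41, 39 and 41 of the 42 genes. The ranges of the 3 mice of each strain did not overlap for 11 genes in WSB against B6 (26.2%, where 26% of all genes did not overlap), for 9 in C3H against B6 (21.4%, where 28.9% did not) and for 9 in WSB against C3H (21.4%, where 28.6% did not). Unadjusted p-values under 0.05 were found for 7, 9 and 7 genes (16.7%, 21.4% and 16.7%), where 20.4%, 24.1% and 23.8% of all genes had one. The comparisons share mice in pairs, so their values are not independent of one another. Leaving out C3H replicate 2 raised the number of genes that passed from 2 to 4 in C3H against B6 and from 2 to 6 in WSB against C3H, where the numbers over all genes rose from 956 to 2301 and from 1182 to 2002.

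**Figure D2:**
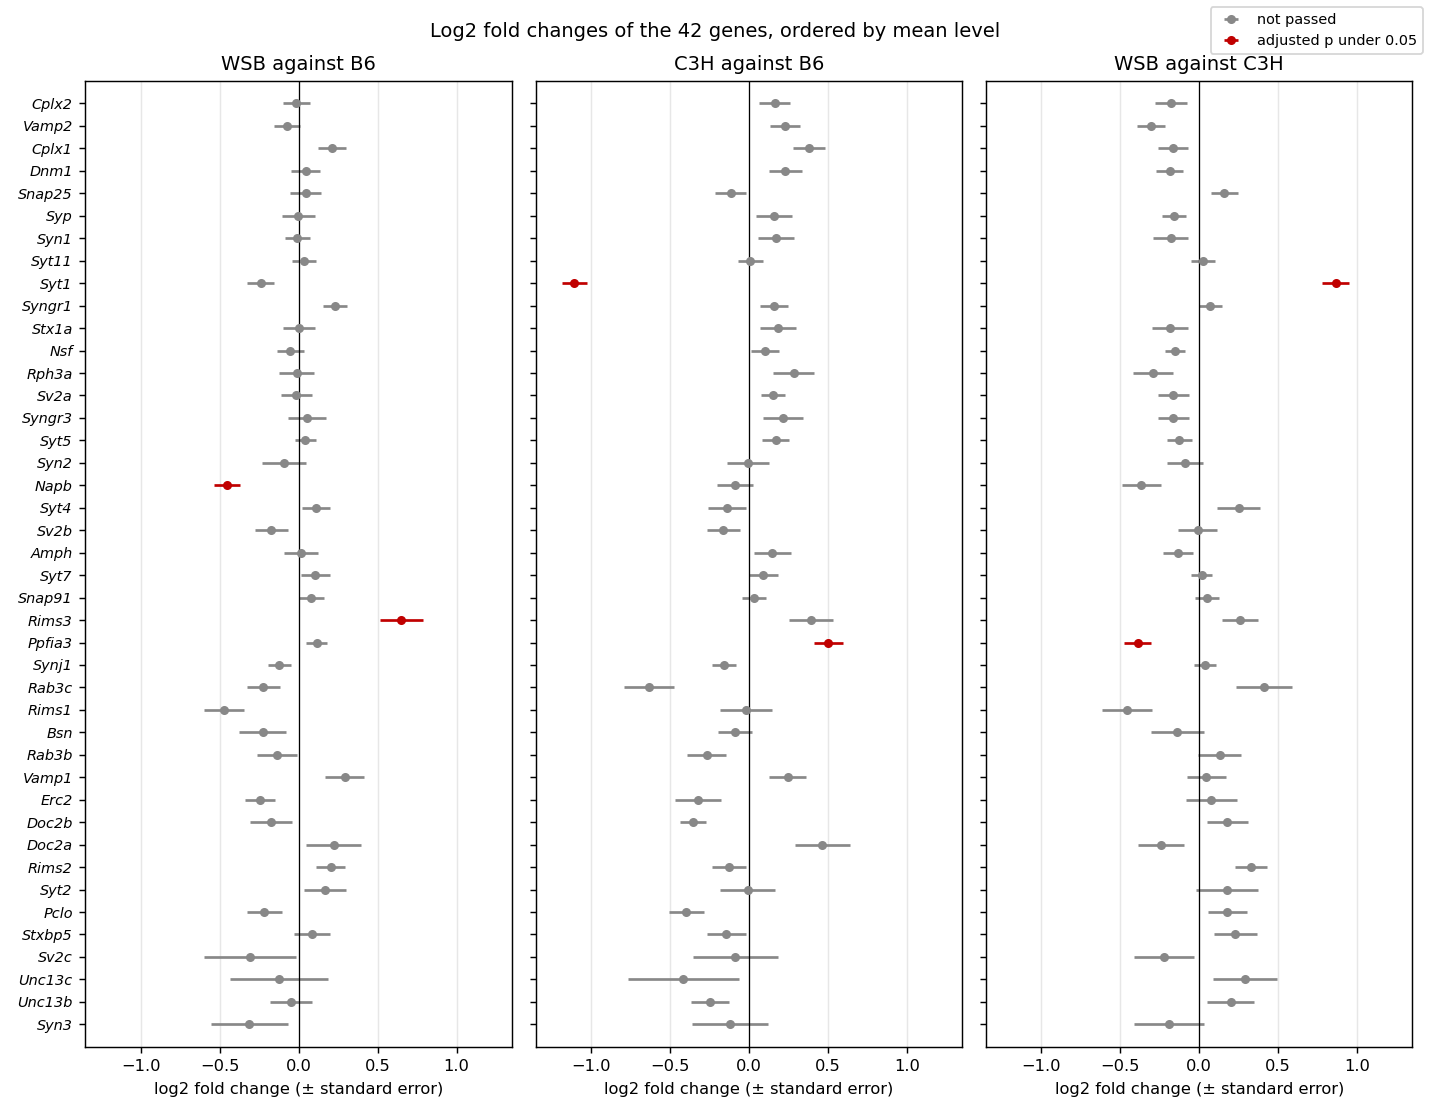
Log2 fold change of each gene with its standard error (points and bars) in the 3 comparisons, with genes that passed at an adjusted p under 0.05 in red. Syt1 is the farthest point in the panels that involve C3H, at -1.11 and 0.86, and most other genes lie within 0.5 of 0.

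The reference sequence before the start of each of the 3 genes with the largest rise or fall that passed (Syt1, Ppfia3 and Rims3) is shown so that the promoters can be read beside the levels. Each line gives the 250 bases before the transcription start, 5′ to 3′ in the direction of the gene, from RefSeq on GRCm38.p6, which is the B6 sequence; the C3H and WSB sequences were not analysed here. Capitals mark GC boxes (GGGCGG) and CCAAT boxes (CCAAT), searched on both strands, and no base lies in both kinds of match. The windows are chr10:109010976-109011225 on the minus strand, chr7:45367020-45367269 on the minus strand and chr4:120854549-120854798 on the plus strand.
Syt1: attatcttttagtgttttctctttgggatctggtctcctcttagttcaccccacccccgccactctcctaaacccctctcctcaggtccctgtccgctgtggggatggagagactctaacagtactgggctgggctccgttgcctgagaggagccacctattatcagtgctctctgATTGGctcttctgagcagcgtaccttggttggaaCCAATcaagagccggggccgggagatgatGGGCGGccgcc
Ppfia3: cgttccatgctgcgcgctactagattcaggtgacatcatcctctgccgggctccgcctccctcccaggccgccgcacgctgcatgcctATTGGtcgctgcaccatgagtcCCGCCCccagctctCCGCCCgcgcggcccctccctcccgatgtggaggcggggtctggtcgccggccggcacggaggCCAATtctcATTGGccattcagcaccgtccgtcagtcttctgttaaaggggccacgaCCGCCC
Rims3: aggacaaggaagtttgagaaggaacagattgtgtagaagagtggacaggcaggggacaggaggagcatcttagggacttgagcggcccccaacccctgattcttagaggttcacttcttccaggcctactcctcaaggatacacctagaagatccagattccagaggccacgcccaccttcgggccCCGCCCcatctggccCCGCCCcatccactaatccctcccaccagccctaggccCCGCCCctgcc

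The Syt1 window held 1 GC box and 2 CCAAT boxes, the Ppfia3 window 3 of each, and the Rims3 window 3 GC boxes and no CCAAT box. GC boxes were found in 32.7% and CCAAT boxes in 33.8% of all 32851 promoters in the table. TATAAA, present in 12.4% of them, and the cAMP response element TGACGTCA, present in 1.55%, had no match in the 3 windows. GC content was 56.4% for Syt1, 67.6% for Ppfia3 and 59.6% for Rims3, beside a median of 52.4% over all promoters. Syt1 has a second RefSeq start, whose window was not printed. A match describes letters only.

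Among the synaptotagmin and Doc2 genes, Syt1 was lower in C3H than in both other strains. Syt1 encodes synaptotagmin 1, the vesicle protein that senses calcium for fast release, and lies on chromosome 10 from 108497650 to 109010982 on the minus strand (ENSMUSG00000035864, GRCm38). Its level was 172, 170.1 and 187 FPKM in the B6 mice, 82.9, 86.5 and 76.8 FPKM in the C3H mice, and 162, 138 and 148 FPKM in the WSB mice. All 3 C3H mice were below every mouse of the other strains, and every WSB mouse was below every B6 mouse. The C3H mean was 0.465 times the B6 mean, a log2 fold change of -1.11 (SE 0.0793, adjusted p = 0.000270 by limma). WSB exceeded C3H by 0.86 on the log2 scale (SE 0.0862, adjusted p = 0.00179 by limma). Between WSB and B6 the log2 fold change of -0.24 (SE 0.0839, adjusted p = 0.161 by limma) did not pass.

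Syt1 passed in both comparisons with C3H under all 19 alternative settings tried, with log2 fold changes from -1.14 to -0.96 against B6 and from 0.76 to 0.92 in WSB against C3H. Among the 2738 genes that averaged 20 FPKM or more in C3H and B6, only 11, Syt1 included, were at least as far below B6 in C3H. Syt1 ranked 9 of the 42 genes in B6 and WSB and 17 in C3H. No exon of another gene overlaps it, and of the 4 genes tested within 1 Mb in C3H against B6, 0 passed by limma.

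Ratios to other vesicle genes of the same libraries restate the drop, because those genes differed little between C3H and B6. Their log2 fold changes were 0.16 for Syp and -0.12 for Snap25. Set against Syp, which encodes the vesicle membrane protein synaptophysin, Syt1 stood at 73.6 to 91.5% of its FPKM in B6, 62.7 to 75.2% in WSB and 31.3 to 37.8% in C3H. Set against Snap25, the percentages were 49.9 to 60.5 in B6, 45.6 to 47.2 in WSB and 27.9 to 29.1 in C3H. Neither ratio overlapped between C3H and the other strains. Exons of Gm14703 (mean 0.905 FPKM) on the opposite strand cover 16.8% of the exonic bases of Syp.

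Syt2 and Syt9 encode the other synaptotagmins known as fast calcium sensors. Syt2 had 5.66 to 6.73 FPKM in B6, 5.94 to 8.30 in WSB and 5.13 to 8.16 in C3H, so its ranges overlapped in all 3 comparisons. Summed, Syt1, Syt2 and Syt9 reached 179 to 197 FPKM in B6, 151 to 171 in WSB and 90.7 to 95.3 in C3H. The share of Syt1 in that sum was 94.8 to 95.2% in B6 and 91.6 to 94.8% in WSB. In C3H replicates 1 to 3 it was 91.4, 90.8 and 83.7%. Syt9 had 2.67 to 3.68 FPKM in B6, 2.81 to 4.38 in WSB, and 2.66, 3.16 and 6.79 in C3H replicates 1 to 3.

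The remaining synaptotagmin and Doc2 genes did not pass in any comparison. Syt11 was the most abundant of the synaptotagmins (mean 195 FPKM), with 181 to 208 FPKM over the 9 mice and overlapping ranges in the 3 comparisons. Doc2a and Doc2b encode calcium-binding proteins linked to spontaneous and asynchronous release, and their values in C3H stood on opposite sides of B6. Doc2b had 11.7, 13.6 and 12.6 FPKM in B6, 9.76, 9.85 and 9.89 in C3H, and 10.8, 13.5 and 9.50 in WSB. Its C3H and B6 mice did not overlap, with a log2 fold change of -0.36 (SE 0.0822, adjusted p = 0.0573 by limma) that passed in 5 of 19 alternative settings. Doc2a had 6.34, 5.97 and 8.92 FPKM in B6 and 11.3, 8.52 and 9.38 in C3H, which overlapped, at a log2 fold change of 0.47 (adjusted p = 0.163 by limma). Exons of Ino80e on the opposite strand cover 39.4% of the exonic bases of Doc2a.

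**Figure D3:**
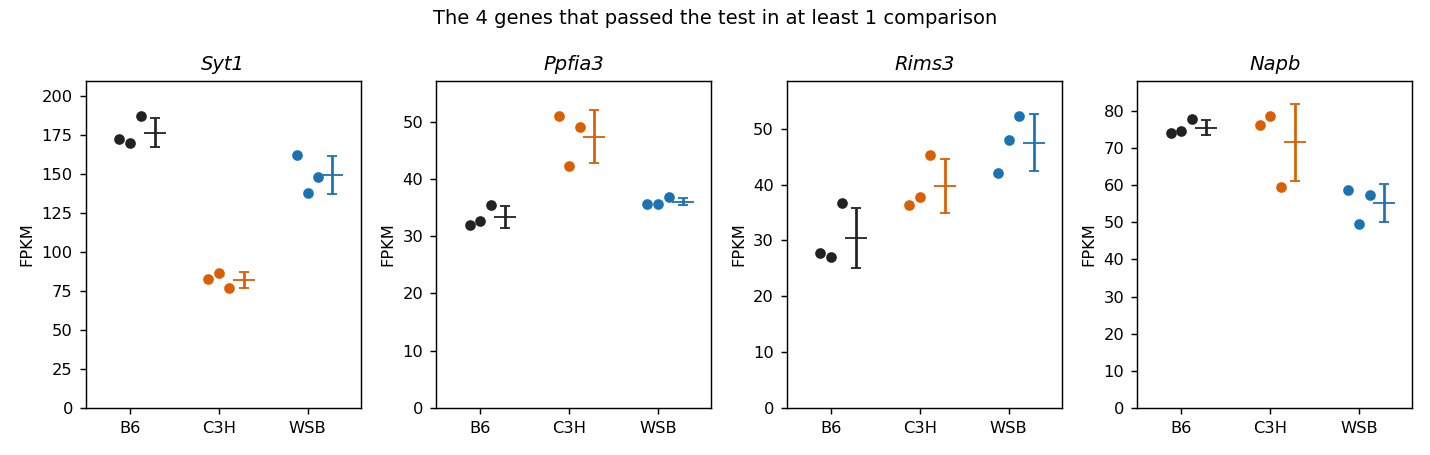
FPKM in each mouse (points) with the mean and SD of each strain (bars to the right, n = 3) for the 4 genes that passed in at least 1 comparison; the axes start at 0. The 3 C3H mice are the lowest for Syt1 and the highest for Ppfia3, and the 3 WSB mice are the lowest for Napb.

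Among the active zone genes, Ppfia3 was higher in C3H and Rims3 was higher in WSB. Ppfia3 encodes liprin-alpha-3, a scaffold of the presynaptic active zone, and lies on chromosome 7 from 45339122 to 45367019 on the minus strand (ENSMUSG00000003863). It had 31.9, 32.6 and 35.5 FPKM in B6, 51.0, 42.2 and 49.0 in C3H, and 35.7, 35.7 and 36.8 in WSB. All 3 C3H mice exceeded every B6 and WSB mouse. The log2 fold change was 0.50 in C3H against B6 (SE 0.0921, adjusted p = 0.0251 by limma) and -0.39 in WSB against C3H (SE 0.0854, adjusted p = 0.0443 by limma). These calls were less firm than those of Syt1: they passed in 11 and in 10 of 19 alternative settings, and in 1 of the 6 that left out a mouse, which in both cases left out C3H replicate 2 (0.58 and -0.47).

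Ppfia3 was the most abundant of the liprin-alpha genes and made up a larger part of their sum in C3H. Its share of the FPKM of Ppfia1 to Ppfia4 was 54.9 to 57.7% in B6, 56.1 to 58.0% in WSB and 63.7 to 69.5% in C3H. These shares did not overlap between C3H and the other strains.

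Rims3 encodes RIM3, a short RIM protein that lacks most domains of RIM1, and lies on chromosome 4 from 120854816 to 120896579 on the plus strand (ENSMUSG00000032890). It had 27.7, 27.0 and 36.6 FPKM in B6, 36.4, 37.7 and 45.3 in C3H, and 42.1, 48.1 and 52.3 in WSB. Every WSB mouse exceeded every B6 mouse, while C3H lay between them and overlapped both. The log2 fold change in WSB against B6 was 0.65 (SE 0.135, adjusted p = 0.0357 by limma), and in C3H against B6 it was 0.39 (adjusted p = 0.151 by limma). Rims3 passed in 12 of 19 alternative settings, but of the 6 that left out a mouse only in the one without B6 replicate 3, where the value was 0.79.

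Rims1, which encodes the RIM1 scaffold that links vesicles to calcium channels, pointed the other way in WSB without passing. It had 29.1, 23.1 and 29.6 FPKM in B6, 29.2, 31.3 and 21.1 in C3H, and 22.1, 17.4 and 19.2 in WSB. The WSB mice lay under every B6 mouse, at a log2 fold change of -0.47 (SE 0.125, adjusted p = 0.0795 by limma), and overlapped C3H, at -0.46 (adjusted p = 0.146 by limma). The value against B6 passed in 3 of 19 alternative settings.

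With Rims3 higher in WSB, the 4 RIM genes made up a similar sum in different proportions. The summed FPKM of Rims1 to Rims4 was 85.3 to 109 in B6, 102 to 110.2 in WSB and 103 to 108 in C3H. Rims3 made up 29.4 to 33.7% of the sum in B6, 41.3 to 47.4% in WSB and 34.1 to 44.1% in C3H. Rims1 made up 27.1 to 31.0% in B6, 17.1 to 21.7% in WSB and 20.5 to 29.0% in C3H. The WSB and B6 shares of both genes did not overlap.

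The large scaffolds bassoon (Bsn) and piccolo (Pclo), the ELKS gene Erc2 and the priming genes Unc13b and Unc13c passed in no comparison. Pclo had 6.85, 6.12 and 5.93 FPKM in B6 and 5.02, 5.07 and 4.22 in C3H, which did not overlap, and its log2 fold change was -0.40 (adjusted p = 0.0940 by limma). Rims2 had 6.95, 8.27 and 6.98 FPKM in C3H and 9.57, 8.71 and 9.63 in WSB, which did not overlap either, at 0.33 (SE 0.0998, adjusted p = 0.107 by limma). Once C3H replicate 2 was left out, Rims2 (0.41) and Unc13c (0.53, and 0.29 with all mice) passed in WSB against C3H.

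**Figure D4:**
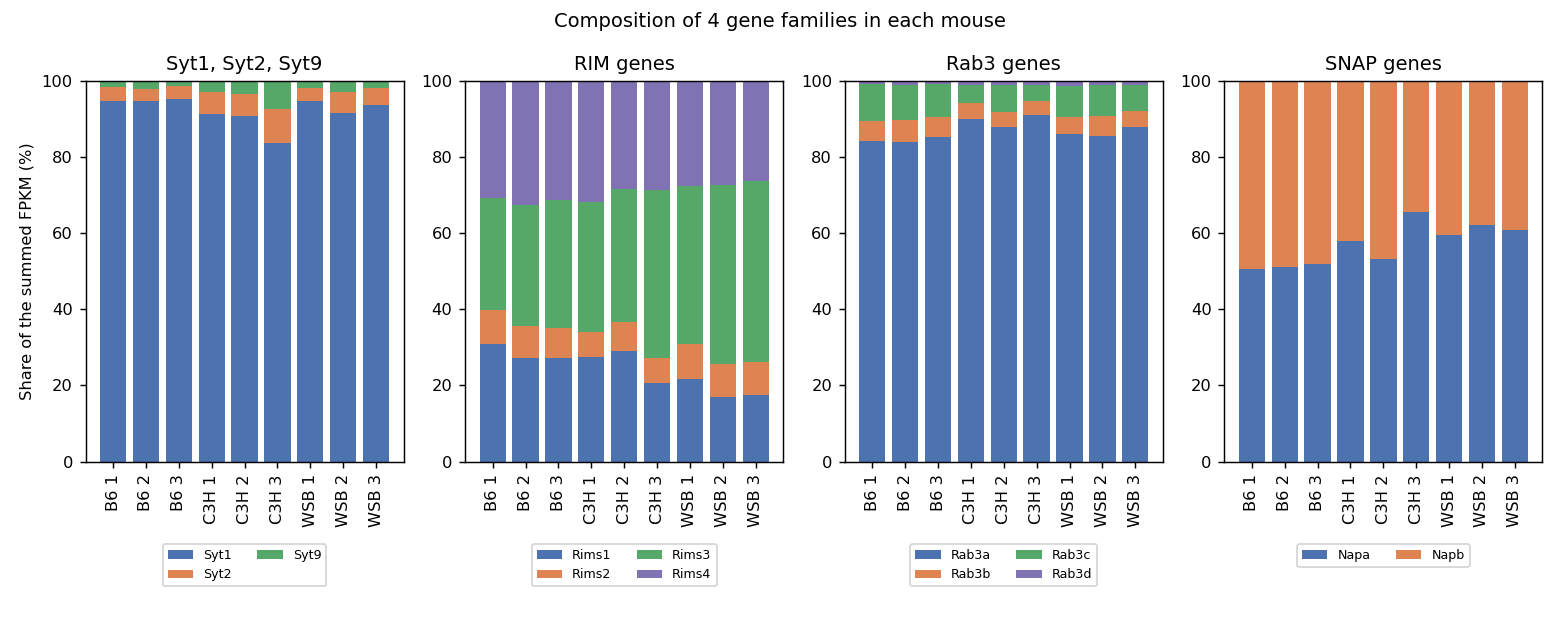
Stacked bars of the share of each gene in the summed FPKM of its family (percent, axis from 0 to 100) in each mouse: fast synaptotagmins, RIM genes, Rab3 genes, and the SNAP adaptor genes Napa and Napb. The Rims3 share is 29.4 to 33.7% in B6 and 41.3 to 47.4% in WSB, and the Napb share is 48.1 to 49.3% in B6 and 37.9 to 40.4% in WSB.

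Among the SNARE and SNARE disassembly genes, Napb was lower in WSB than in B6. Napb encodes beta-SNAP, the brain form of the adaptor through which NSF takes SNARE complexes apart, and lies on chromosome 2 from 148693985 to 148732467 on the minus strand (ENSMUSG00000027438). It had 74.1, 74.6 and 77.8 FPKM in B6, 76.3, 78.6 and 59.6 in C3H, and 58.7, 49.4 and 57.5 in WSB. All 3 WSB mice were below every mouse of the other strains, although C3H replicate 3 was close to them. The log2 fold change in WSB against B6 was -0.45 (SE 0.0815, adjusted p = 0.0202 by limma), and it passed in 15 of 19 alternative settings but in none of the 3 that left out a B6 mouse. Against C3H it was -0.37 (SE 0.124, adjusted p = 0.136 by limma).

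Napa encodes alpha-SNAP, the form found in all tissues. The share of Napb in the sum of Napa and Napb was 48.1 to 49.3% in B6, 37.9 to 40.4% in WSB and 34.4 to 46.7% in C3H. The B6 shares did not overlap with those of either other strain. Napb itself overlapped between C3H and B6, at a log2 fold change of -0.09 (SE 0.112, adjusted p = 0.658 by limma). Napa averaged 79.3 FPKM in B6, 85.8 in WSB and 102.7 in C3H.

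The core fusion genes passed in no comparison, although Vamp2 and Cplx1 had ranges that did not overlap between some strains. Vamp2, the vesicle SNARE of most cortical synapses, had 315, 349 and 358 FPKM in B6, 431, 370.4 and 399 in C3H, and 325, 335 and 310.4 in WSB. The C3H mice were above all others, with log2 fold changes of 0.23 against B6 (adjusted p = 0.199 by limma) and -0.30 in WSB against C3H (SE 0.0878, adjusted p = 0.0958 by limma). The second of these passed without C3H replicate 2, at -0.36.

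Cplx1, which encodes complexin 1, had 293, 292 and 334 FPKM in B6, 408, 360 and 429 in C3H, and 342, 376 and 345 in WSB. All C3H and WSB mice exceeded every B6 mouse. The log2 fold change in C3H against B6 was 0.38 (SE 0.103, adjusted p = 0.0865 by limma), and 0.45 with C3H replicate 2 left out, which passed. Cplx2 had 327 to 352 FPKM in B6, 312 to 358 in WSB and 349 to 426 in C3H, and these ranges overlapped. Vamp1 had 11.8, 13.3 and 15.0 FPKM in B6 and 14.1, 16.7 and 18.4 in WSB, which overlapped, at 0.29 (adjusted p = 0.251 by limma). Snap25 had 275 to 345 FPKM over the 9 mice, with overlapping ranges throughout.

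Over the 9 genes of SNARE proteins and their partners, 6 were above 0 in C3H against B6, with a median log2 fold change of 0.16. In WSB against B6, 4 were above 0, and in WSB against C3H, 3 were, with a median of -0.17. None of the 9 passed in either comparison with C3H. With each library's trend with GC content removed, all 9 were above 0 in C3H against B6, with a median of 0.09, and the median in WSB against C3H was -0.09.

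Rab3 proteins bind GTP on the vesicle and act through effectors such as RIM and rabphilin. Of the 3 members of this kind, Rab3b, Rab3c and the rabphilin gene Rph3a, none passed. Rab3c had 29.4, 32.5 and 30.4 FPKM in B6, 19.0, 25.5 and 16.0 in C3H, and 28.6, 28.5 and 22.4 in WSB. The C3H mice were below every B6 mouse, at a log2 fold change of -0.63 (SE 0.159, adjusted p = 0.0719 by limma), and overlapped WSB, at 0.41 (adjusted p = 0.214 by limma). With C3H replicate 2 left out, both passed, at -0.82 and 0.59. With all mice and each library's trend with GC content removed, neither passed, at -0.40 and 0.21 (adjusted p = 0.0869 and 0.369 by limma). Rab3c made up 8.56 to 9.71% of the summed FPKM of the 4 Rab3 genes in B6, 6.72 to 8.30% in WSB and 4.31 to 7.19% in C3H.

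Of the 9 vesicle membrane genes and synapsins, and of the 4 endocytic genes, 0 passed in any comparison by limma. Syngr1, which encodes the vesicle protein synaptogyrin 1, had 114, 124 and 134 FPKM in B6 and 143, 145 and 148 in WSB. These did not overlap, at a log2 fold change of 0.23 (adjusted p = 0.155 by limma). In C3H against B6, 5 of the 9 vesicle membrane genes were above 0, with a median of 0.15, and in WSB against C3H, 1 of 9 was above 0, with a median of -0.16. With the trend with GC content removed from each library, these medians were 0.00417 and -0.06. The counts above 0 stayed at 5 and 1 of the 9 genes.

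Sv2c, the SV2 gene best known from the basal ganglia, varied most of this role within a strain. It had 6.56, 3.94 and 2.99 FPKM in B6, 3.76, 3.58 and 4.79 in C3H, and 2.65, 4.17 and 3.62 in WSB. The summed level of 7 striatal markers was 456, 247 and 110.0 FPKM in the same B6 mice, 189, 103 and 272 in C3H, and 81.1, 161 and 217 in WSB. Both were highest in B6 replicate 1 and lowest in WSB replicate 1. The part of the striatal markers in the level of Sv2c was not tested.

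In C3H against B6, the direction of a member followed the base composition of its transcript. The GC content of the longest transcript ran from 38.7% (Snap25) to 60.9% (Ppfia3) over the 42 genes. Of the 21 genes at or above the median of 49.7%, 17 were higher in C3H, with a median log2 fold change of 0.17, and of the 21 below it, 4 were higher, with a median of -0.14. The Spearman correlation between log2 fold change and GC content was 0.70 over the 42 genes and 0.48 over the 12989 genes that averaged 1 FPKM or more. It was 0.35 over the 42 genes in WSB against B6 and -0.47 in WSB against C3H. These points come from the same libraries, so no p-value is given.

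The libraries also differed one by one. For each library, the members' levels against the mean of all mice were set beside GC content. The correlation was 0.65, -0.17 and 0.63 in C3H replicates 1 to 3. In B6 replicates 1 to 3 it was -0.62, -0.46 and -0.12, and in WSB replicates 1 to 3 it was -0.36, 0.03 and 0.04. When the smooth trend with GC content was removed from each library, the correlation in C3H against B6 fell to 0.18, and 15 of the 21 GC-rich genes and 9 of the 21 others were above 0. Under that setting Syt1 still passed, at -1.02 against B6 and 0.80 in WSB against C3H. Ppfia3, the member with the highest GC content, passed at a smaller value of 0.31 against B6 (adjusted p = 0.0185 by limma). The values of several members that had not passed shrank: with GC, and with GC and length trends removed, C3H against B6 gave 0.23 and 0.17 for Cplx1, 0.13 and 0.10 for Vamp2, 0.28 and 0.23 for Doc2a, -0.40 and -0.29 for Rab3c, and -0.30 and -0.08 for Pclo. Rims3 gave 0.25 with the GC trend removed, and Rab3c in WSB against C3H gave 0.21 and 0.14. Doc2b passed at -0.49 against B6, and Napb passed in WSB against C3H at -0.48. In the fits without C3H replicate 2, the C3H libraries left were those correlated at 0.65 and 0.63, and no GC trend was removed. With all mice and the GC trend removed, Rab3c, Cplx1, Vamp2, Rims2 and Unc13c passed in no comparison. The family shares and Syt1 ratios above also used values with no GC trend removed.

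**Figure D5:**
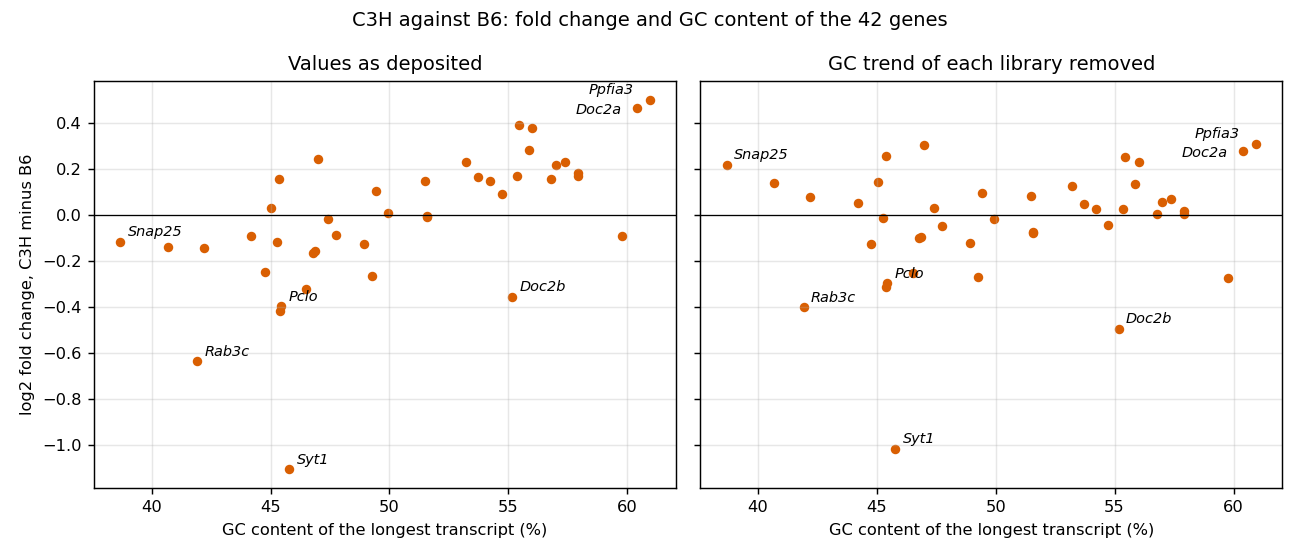
Log2 fold change in C3H against B6 for each of the 42 genes (points) against the GC content of its longest transcript, with values as deposited (left) and with each library's trend removed (right). The upward slope on the left (Spearman 0.70) is much weaker on the right (0.18), and Syt1 stays far below 0 in both panels.

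A wider list held 66 genes of the same families and partners, and 65 of them were tested. In WSB against B6, 0 of them were higher (2.81% over all genes) and 3, or 4.62%, were lower (3.09% over all genes): Stx3, a syntaxin of ribbon and dendritic sites, Rab27b, a Rab of secretory granules, and Synpr, the vesicle protein synaptoporin. Stx3 had 6.40, 6.25 and 5.21 FPKM in B6 and 3.46, 3.60 and 3.81 in WSB, which did not overlap, and fell by 0.70 on the log2 scale (SE 0.109, adjusted p = 0.0117 by limma). Rab27b was 3.42, 2.99 and 2.79 FPKM in B6 and 1.95, 1.85 and 1.79 in WSB, a fall by 0.68 (SE 0.122, adjusted p = 0.0202 by limma). Synpr was 14.7, 13.7 and 12.4 FPKM in B6 and 9.75, 7.57 and 10.2 in WSB, a fall by 0.57 (SE 0.128, adjusted p = 0.0452 by limma). Of 19 alternative settings, Stx3 passed in 16, Rab27b in 12 and Synpr in 8, and of the 6 that left out a mouse they passed in 5, 1 and 0.

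In C3H against B6, 0 of the 65 passed by limma, where 4.64% of all genes did. In WSB against C3H, 1 (1.54%) was higher, where 2.61% of all genes were. Cadps2, which encodes a priming factor of dense-core vesicles, had 7.003 to 8.63 FPKM in C3H and 10.1 to 11.03 in WSB, at a log2 fold change of 0.44 (SE 0.0997, adjusted p = 0.0480 by limma). The ranges of the 2 strains did not overlap, and the call held in 10 of 19 alternative settings and in 1 of the 6 that left out a mouse. Median log2 fold changes over the 65 genes were -0.07, 0.01 and -0.07 in the 3 comparisons.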

How the data were processed

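Cortex RNA of 3 male mice per strain was sequenced. The authors trimmed reads with Cutadapt and counted them on genes with HTSeq. STAR and DESeq2 are named without versions in the submitters' processing notes. They deposited 1 FPKM value per gene and mouse, and whether counting used strand is not given in the sources used here. After multiplication by gene length, 100% of the values were whole multiples of a step that was constant within a library (tolerance 0.01 reads), which returned the reads on each gene. The denominators equalled size factors times 18569070.

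Strains were compared 2 at a time with limma 3.58.1 in R 4.3.3 on log2(FPKM + 0.1), using lmFit and two-sided moderated statistics from eBayes with a trend. Genes that averaged 0.1 FPKM or more over the 6 mice were tested. Fold changes are on that scale and understate changes of low genes. The Benjamini-Hochberg method was applied over all genes tested, with a threshold of 0.05. An exact permutation test of 3 against 3 mice cannot go below p = 0.1 and was not used. Scripts were tested on simulated data. A p-value here sets the difference of 2 strain means against the spread of these mice within strains, with variances moderated over genes.

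The 42 genes and all gene lists were chosen with earlier results of these data known. Values are given for every member that passed, for the 2 largest positive and negative fold changes per comparison, for the 3 most abundant members and for up to 10 genes of the wider list that passed. One result of the wider list is not reported here. Members named beyond these were chosen after their values were seen. All 42 were found in GENCODE M21 (GRCm38), 40 with the same coordinates as deposited. GC content came from the longest transcript. Promoters of 32 members were in the RefSeq table. Figures were drawn with matplotlib 3.10.9.

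The alternatives were a pseudocount of 1 or 0.01, a filter of 1 FPKM or none, rescaling by median ratios or to equal total reads, removal of GC or of GC and length trends, a joint fit of all 3 strains, voom weights on the recovered reads, eBayes without a trend, the replicate number as a block with and without GC removal, and leaving out each mouse.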

Additional observations from a re-analysis of the deposited data

Results flagged for a closer look

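Syt1 and Ppfia3 differed from B6 by unequal amounts in C3H and in WSB, as tested by the direct comparison of WSB with C3H. For Syt1 the log2 fold change was -1.11 in C3H against B6 and -0.24 in WSB against B6, and the difference between WSB and C3H was 0.86 (SE 0.0862, adjusted p = 0.00179 by limma), with all 3 WSB mice above all 3 C3H mice. For Ppfia3 it was 0.50 in C3H against B6 and 0.11 in WSB against B6, and the difference was -0.39 (SE 0.0854, adjusted p = 0.0443 by limma), with all 3 WSB mice below all 3 C3H mice. With each library's GC trend removed these differences were 0.80 for Syt1 and -0.25 for Ppfia3, and both passed. The part of base composition in the difference of Ppfia3 was not tested further.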

How the results depend on the processing

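The number of release genes that passed was 2 in each comparison as reported. In WSB against B6 it was 1 with no filter and 0 with eBayes without a trend, and ranged from 0 to 1 when a mouse was left out. In C3H against B6 it was 4 with all 3 strains in one fit, 1 with eBayes without a trend and 6 with voom weights, and ranged from 1 to 4 when a mouse was left out, with 4 only without C3H replicate 2. In WSB against C3H it was 1 with no filter and 1 with eBayes without a trend, and ranged from 1 to 6, with 6 only without C3H replicate 2. Numbers of all genes that passed ranged over alternatives from 651 to 1541 around 1224 in WSB against B6, from 480 to 2301 around 956 in C3H against B6 and from 475 to 2002 around 1182 in WSB against C3H. The replicate numbers did not pair the mice (correlations of -0.157 to 0.0370), and with the replicate number as a block 3, 1 and 1 release genes passed in the order above, among 754, 480 and 531 genes. Over these alternatives, 29 fold changes of named genes gave 551 values. Of these, 460 kept their direction and side of the threshold, 22 passed newly, 69 no longer passed and none reversed, and the cause was not tested. Many of the 29 were followed because they had passed or were large, so few reversals could be seen. Members not followed in C3H against B6 did reverse there with the GC trend removed. Snap25 went from -0.12 to 0.22, Syt4 from -0.14 to 0.14, Stxbp5 from -0.14 to 0.08 and Napb from -0.09 to 0.05. Syt7 went from 0.09 to -0.04, Rims1 from -0.016 to 0.033 and Syt11 from 0.009 to -0.015. Every release gene had at least 87 reads in every library, and the number of mice (3 per strain) limits the precision.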
